A study of Mus musculus with 28 samples.

Results

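Hair matrix cells (Mx), the keratinocytes of the growing hair bulb, were compared with keratinocytes of the surface epidermis (Epi), both sorted from mouse back skin at postnatal day 5. The comparison covers every gene that reached 1 FPKM (fragments per kilobase of transcript, relative to library size) in 2 or more of the 4 libraries of these populations, 11760 of the 23015 rows of the deposited table. All 11760 were among the 15052 genes tested, which reached 1 FPKM in 2 or more of the 28 libraries of the series. The study measured 14 sorted populations with 2 libraries each, to follow signalling in developing follicles, and Mx against Epi asks how keratinocytes that make hair differ from keratinocytes that make the skin barrier. Both populations came from the K14-H2BGFP line, in which the promoter of keratin 14 drives a green fluorescent histone in keratinocytes. The labels give the genotype of both as Lef1-RFP and the strain as a mix of CD1, FVB/N and C57BI/6J. Epi cells were GFP-positive cells from an epidermal preparation, while Mx cells were dimly GFP-positive cells (K14-H2BGFPLo) from a dermal preparation. An effect of the preparation and an effect of the cell type thus cannot be told apart in this comparison. ORS, the bright GFP cells of the dermal preparation labelled outer root sheath, is used below as a neighbouring follicle population from the preparation that gave Mx, and TAC, dim GFP cells of that preparation that also carried Lef1-RFP, is given for its values only.

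The hair matrix is a ring of dividing cells around the dermal papilla. Its daughters move upwards and build the companion layer and inner root sheath, which mould the hair, and the hair shaft itself. In the epidermis, basal cells hold on to the basement membrane, and their daughters move outwards, exchange basal for suprabasal keratins and end as cornified cells sealed with lipids. Wnt, Sonic hedgehog and bone morphogenetic protein (BMP) signals direct hair growth in the matrix, whereas epidermal keratinocytes also send immune signals.

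FPKM summed to 431717 and 404604 in the Mx libraries and to 464162 and 464924 in the Epi libraries. Such sums are not sequencing depths, and no depth could be recovered from the values, so no counting error is given. Across genes, the replicates of Mx correlated at r = 0.960. The labels do not say that replicates came from separate animals. The p-values thus measure only the spread between these samples (n = 2 per population), pooled over the 28 libraries. Part of that spread may be technical. Replicate 2 had more Xist in each population (219 and 323 FPKM in Mx, 302 and 787 in Epi), and the Y-linked Ddx3y was at 3.0 and 0 in Mx and at 3.61 and 0.0341 in Epi, so that the replicates differed in sex makeup. In bulk RNA, fewer cells of a type and less RNA per cell cannot be told apart. A value of exactly 0 can be a failed estimate, so such genes are described as listed at 0, and no fold is given against a population listed at 0 in both libraries.

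The test was limma on log2(FPKM + 1) over all 28 libraries, and calls required a log2 difference of 1 or more besides an adjusted p below 0.05. In either direction 1694 genes were called, 11.3% of those tested. Of these, 770 (5.12% of genes tested) were higher in Mx and 924 (6.14%) were lower, and the members held 764 and 907 of them. Every list count below is to be read against these shares of 5.12% higher and 6.14% lower. A list with shares near them does not stand out from all genes tested. Of the genes called higher, 81 were listed at 0 in both Epi libraries, and of those called lower, 72 were listed at 0 in both Mx libraries. Detection was shared for most members: 9756 had at least 1 FPKM in all 4 libraries, 476 only in both Mx libraries and 413 only in both Epi libraries. The median log2 difference was 0.046 over genes tested and 0.07 over members. With 1 library left out, whose partner is then assumed to vary like the other groups, the counts of higher and lower genes were 528 and 746 without Mx replicate 1, 477 and 570 without Mx replicate 2, 494 and 620 without Epi replicate 1, and 503 and 710 without Epi replicate 2. With the spread taken from these 4 libraries alone they were 337 and 377. Genes named below as higher or lower passed this test. Where leaving out a library ends a call against Epi, that library is named. For calls against ORS, only counts of genes are given with 1 library left out. Among the genes of the lists used below, Krt82 lay just inside the rule for members, with a second highest value of 1.01 FPKM, and Hey1 just outside it, with 0.986 FPKM. Log2 differences on this scale are given as Mx minus Epi with their standard errors, and they understate the change of low genes.

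**Figure D1:**
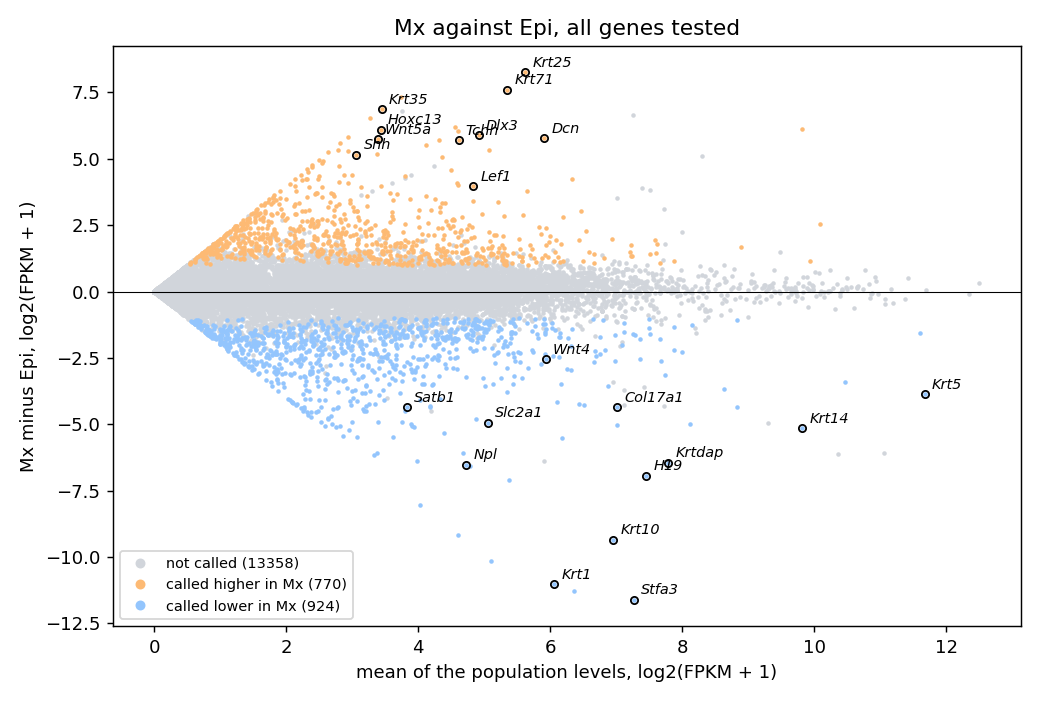
Each point is 1 of the 15052 genes tested, with the mean of its population levels on log2(FPKM + 1) on the x axis and the Mx minus Epi difference on the y axis. Orange points are the 770 genes called higher and blue points the 924 called lower, grey points were not called, and named genes are circled. Keratins stand at both ends of the y axis, Krt25 and Krt71 at the top and Krt1 and Krt10 near the bottom. Genes listed at 0 in both Epi libraries, such as Krt35, lie on the upper edge, where their position depends on the pseudocount of 1.

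The labels of both populations were first checked against marker genes. Krt25, an inner root sheath keratin, was at 838 and 834 FPKM in Mx and 2.83 and 0.944 in Epi. Krt35, a keratin of the hair shaft cortex, was at 102 and 132 in Mx and listed at 0 in both Epi libraries. Lef1, the transcription factor through which Wnt signals act in the matrix, was at 105 and 115 in Mx and 8.08 and 4.51 in Epi. All 3 were higher in Mx with no overlap. Krt1, the first suprabasal keratin, was at 0.647 and 0.273 in Mx against 3434 and 2643 in Epi, and its partner Krt10 at 4.38 and 3.25 in Mx against 3811 and 2571 in Epi. Both were lower in Mx by the widest margins of any keratin, with log2 differences of -11.02 ± 0.52 and -9.35 ± 0.43. Late markers of epidermal differentiation were uneven in Epi: loricrin (Lor) was at 0 and 1.93, filaggrin 2 (Flg2) at 0.697 and 0.748 and Krt2 was listed at 0, while Casp14, also a late gene, was at 68.7 and 88.7. Mx carries the label of matrix progenitors, yet keratins of the inner root sheath and companion layer made up 53.8% and 59.1% of its keratin FPKM.

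The keratins together took 6.92% and 4.73% of the FPKM of the Epi libraries and 0.851% and 0.846% in Mx. Of 9 keratins of the inner root sheath and companion layer, 8 were higher in Mx (6 whichever library was left out) and none lower (0 at an unadjusted p under 0.05 in limma), against 5.12% of all genes tested higher, and their median log2 difference was 6.21 against 0.046 for all genes tested. Their sum was 1975 and 2024 FPKM in Mx and 6.18 and 10.7 in Epi. All 3 tested suprabasal keratins were lower, as were 6 of 15 basal and other keratins, while 1 of those 15 was higher. The promoter ends of 6 of these genes are shown because the genes lie side by side in 2 clusters and moved in opposite directions. Each line holds the 150 bases before a RefSeq start of the gene (build GRCm38.p6, which is mm10), written 5′ to 3′ on the strand of the gene. For Krt10 the start used, 99389364, lies inside the RefSeq span of the gene (99385254-99397449). Capitals mark TATAAA, a form of the TATA box, which places the transcription start.
Krt25 (chr11:99322952-99323101, minus strand): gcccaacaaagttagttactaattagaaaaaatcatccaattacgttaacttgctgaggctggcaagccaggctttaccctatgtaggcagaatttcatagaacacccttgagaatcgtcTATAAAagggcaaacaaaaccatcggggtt
Krt28 (chr11:99374904-99375053, minus strand): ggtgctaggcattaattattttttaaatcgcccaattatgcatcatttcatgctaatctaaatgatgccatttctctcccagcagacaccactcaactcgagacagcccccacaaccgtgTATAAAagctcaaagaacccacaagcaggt
Krt10 (chr11:99389365-99389514, minus strand): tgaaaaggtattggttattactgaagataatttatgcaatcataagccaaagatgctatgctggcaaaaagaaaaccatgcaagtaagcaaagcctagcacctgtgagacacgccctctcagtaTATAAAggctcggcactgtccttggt
Krt71 (chr15:101743098-101743247, minus strand): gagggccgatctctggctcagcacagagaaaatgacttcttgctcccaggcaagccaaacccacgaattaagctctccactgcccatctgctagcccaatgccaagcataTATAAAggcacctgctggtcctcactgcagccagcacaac
Krt73 (chr15:101802361-101802510, minus strand): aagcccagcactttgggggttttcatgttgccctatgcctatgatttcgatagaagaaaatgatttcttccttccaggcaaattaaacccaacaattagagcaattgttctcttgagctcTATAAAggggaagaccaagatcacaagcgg
Krt77 (chr15:101869706-101869855, minus strand): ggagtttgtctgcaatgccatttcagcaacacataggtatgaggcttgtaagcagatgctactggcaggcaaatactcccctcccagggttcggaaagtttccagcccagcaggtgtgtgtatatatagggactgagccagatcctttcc

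Krt25, Krt28 and Krt10 encode acidic (type I) keratins of chromosome 11, and Krt71, Krt73 and Krt77 encode basic (type II) keratins of chromosome 15. The first base of TATAAA lay 30 bases before the start in Krt25, Krt28 and Krt73, 26 before it in Krt10 and 40 in Krt71. Krt77 had no TATAAA, but its sequence holds tatatata near the start. Forms of the TATA box other than TATAAA were not searched for, so the counts below cover that string only. Krt35 and Krt1 had no entry among the promoters, so all motif counts here leave them out. In the 250 bases before the start, on the strand of the gene, TATAAA was present in 6 of the 8 inner sheath and companion keratin promoters (75%) and in 5 of 9 hair shaft keratin promoters, against 7.59% of 32851 RefSeq promoters and 4.47% of promoters of genes tested. Among keratins called in this comparison, it was in 6 of 9 promoters of those higher in Mx and in 1 of 5 of those lower, so keratins of either direction held it. CTTTGAA or CTTTGAT, the core bound by LEF and TCF factors, was searched on both strands. It was in 5 of 9 hair shaft keratin promoters and in 1 of 3 suprabasal keratin promoters, against 7.48% of all promoters. None of the 8 inner sheath and companion ones held it. TGANTCA, the AP-1 core, likewise on both strands, was in 12 of 32 promoters of cornified envelope genes (37.5%) against 6.75% of all, and in none of the 8. Matches of different motifs can share bases (CTTTGAT and TGANTCA may share TGAT) and were counted separately, a match describes letters only, and neighbouring keratin promoters are copies of a shared ancestor.

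By mean FPKM, a per-length level, the inner sheath keratins of Mx ranked Krt25, Krt71, Krt73, Krt27 and Krt28. Krt71, the type II partner in the inner sheath, was at 469 and 578 FPKM in Mx and 0.466 and 3.85 in Epi (log2 difference 7.61 ± 0.63, adjusted p = 5e-08). Krt28, a type I keratin of all 3 inner sheath layers, was at 192 and 145 in Mx and 0.0855 and 0 in Epi (7.34 ± 0.61). Krt73 of the inner sheath cuticle was at 208 and 184 in Mx and 2.57 and 1.48 in Epi (6.05 ± 0.68). Krt27 was at 173 and 170.0 in Mx and 0 and 4.44 in Epi (6.21 ± 0.58). In none of these did a Mx library come near an Epi library. Krt75, the keratin of the companion layer, was at 85.8 and 96.6 in Mx and listed at 0 in Epi. Krt26 and Krt72, keratins of the inner sheath cuticle, were listed at 0 in Epi and low in Mx, Krt26 at 5.56 and 5.32 and Krt72 at 3.74 and 8.96. Their calls (adjusted p = 0.00984 and 0.0495) were lost whichever of the 4 libraries was left out, with adjusted p up to 0.0628 without Epi replicate 1 and 0.333 without Mx replicate 2. Krt74, the remaining member, was at 0.3 and 1.95 in Mx and 0.224 and 0 in Epi and was not called. Type I inner sheath keratins summed to 1208 and 1155 FPKM in Mx and type II to 766 and 869, so both partner types of the filament were present.

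Keratins of the hair shaft made up 3.03% and 4.53% of keratin FPKM in Mx and 15.1% and 15.6% in TAC, not counting a row that joins Krt81, Krt83 and Krt85, and 4.21% and 6.43% in Mx and 20.96% and 21.3% in TAC with that row counted. Krt35, the first type I keratin of the cortex, gave most of the sum without that row (adjusted p = 1.34e-06). The joined row was at 45.3 and 69.4 FPKM in Mx and listed at 0 in Epi, and its reads cannot be divided among those genes. Of 10 hair shaft keratins tested, Krt35 and Krt33a were higher and none lower (0 at an unadjusted p under 0.05 in limma). Krt33a was at 2.14 and 6.92 in Mx and listed at 0 in Epi, and its call (adjusted p = 0.0393) was lost without Mx replicate 2 and without either Epi library (adjusted p up to 0.377). Krt31, with 1.39 and 6.52 in Mx, was not called, and Krt32 was at 1.26 and 3.60 in Mx and 1.77 and 3.20 in Epi. Among 29 tested keratin-associated protein genes, whose products crosslink the shaft keratins and whose copies are near-identical, 2 were higher (1 without Mx replicate 2 or either Epi library) and 3 lower. Krtap8-1 was at 19.1 and 28.4 in Mx and listed at 0 in Epi, whereas Krtap10-4 was at 0 and 0.177 in Mx and 1.84 and 2.19 in Epi and lost its call with a pseudocount of 5.

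Basal keratins were the most abundant keratins of Epi, and 3 of them were lower in Mx. Krt5 was at 917 and 764 FPKM in Mx and 15798 and 9569 in Epi (-3.88 ± 0.46, adjusted p = 4.78e-06). Krt14, its partner and the gene whose promoter drives the sorting transgene, was at 174 and 128 in Mx and 6264 and 4486 in Epi (-5.14 ± 0.52). Mx was gated on dim GFP under the Krt14 promoter, so the lower Krt14 is bound up with how the cells were sorted. Krt15 was at 119 and 83.2 in Mx and 1966 and 2115 in Epi (-4.34 ± 0.42). Even so, Krt5, Krt14 and Krt15 still made up 32.9% and 28.5% of keratin FPKM in Mx, against 74.8% and 73.6% in Epi. Krt77, a late suprabasal and sweat duct keratin, was at 2.02 and 1.54 in Mx and 324 and 217 in Epi (-6.59 ± 0.62). Krt16, a keratin of thickened and wounded epidermis, was at 3.78 and 1.99 in Mx and 113 and 51.6 in Epi (-4.36 ± 0.51). Krt17, a follicle and appendage keratin, overlapped between the populations at 231 and 148 in Mx and 176 and 111 in Epi. Krt23 was the single gene of this list that was higher in Mx, at 20.03 and 34.8 in Mx against 2.89 and 1.25 in Epi (3.21 ± 0.52).

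**Figure D2:**
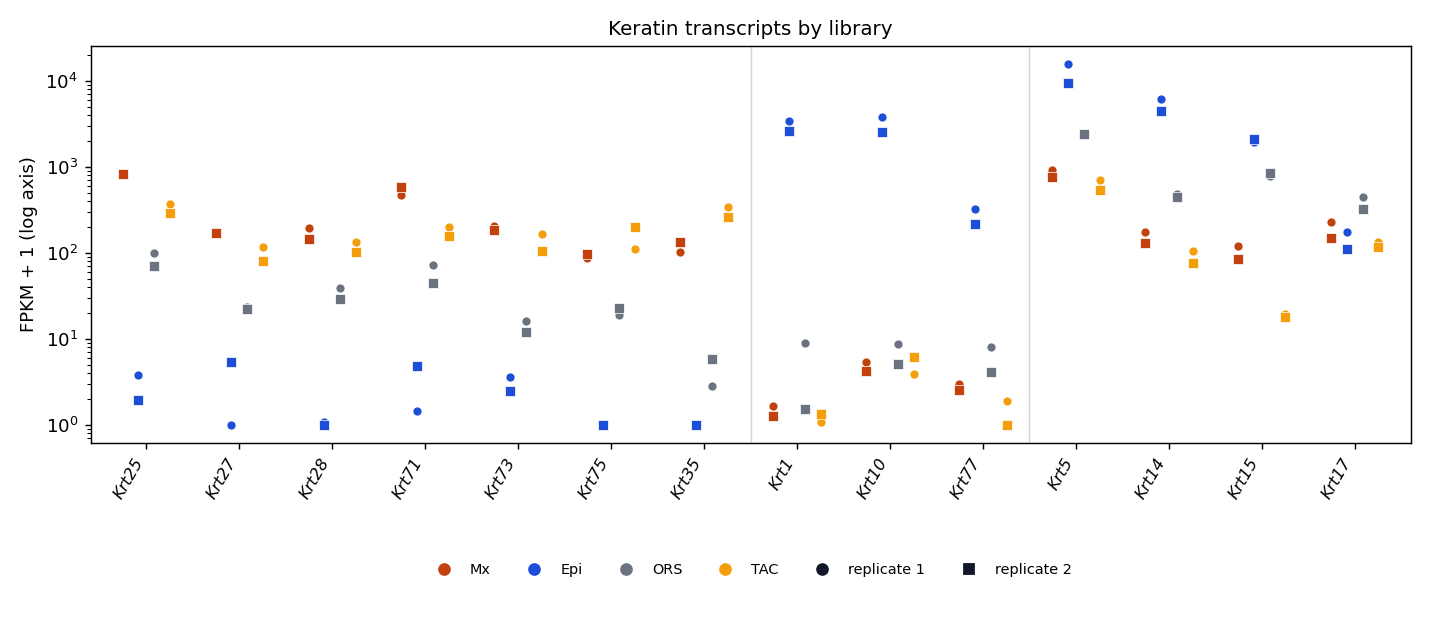
Points show FPKM + 1 on a log axis for each library of Mx, Epi, ORS and TAC, with circles for replicate 1 and squares for replicate 2. The left block holds hair follicle keratins, the middle block suprabasal and the right block basal keratins and Krt17. Krt25 lies at 838 and 834 FPKM in Mx and at 2.83 and 0.944 in Epi, Krt1 and Krt10 lie between 2571 and 3811 FPKM in Epi and below 10 FPKM in the other 3 populations, and Krt17 overlaps between Mx and Epi.

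Gene order within the 2 keratin clusters placed opposite directions side by side. The type I cluster (chr11:99232761-100269951, GRCm38.p6) holds 27 keratins, of which 22 were tested, 7 were higher in Mx and 5 lower. Krt25, Krt26, Krt27 and Krt28 follow one another with no other keratin between them and were all higher. The next gene, Krt10, was lower with a log2 difference of -9.35 ± 0.43. Further along, Krt35 was higher while Krt15, Krt14 and Krt16 were lower. The type II cluster (chr15:101348315-102032026) holds 22 keratins, of which 18 were tested, 4 were higher and 5 lower. There, Krt71, Krt74, Krt72 and Krt73 lie in a row, of which all but Krt74 were higher. Krt5, the neighbour on one side, was lower, as were Krt1 and Krt77 on the other, beyond Krt2, which was listed at 0. Krt26 and Krt72 are the members of these runs whose calls were lost without any 1 library (adjusted p up to 0.0628 and 0.333).

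**Figure D3:**
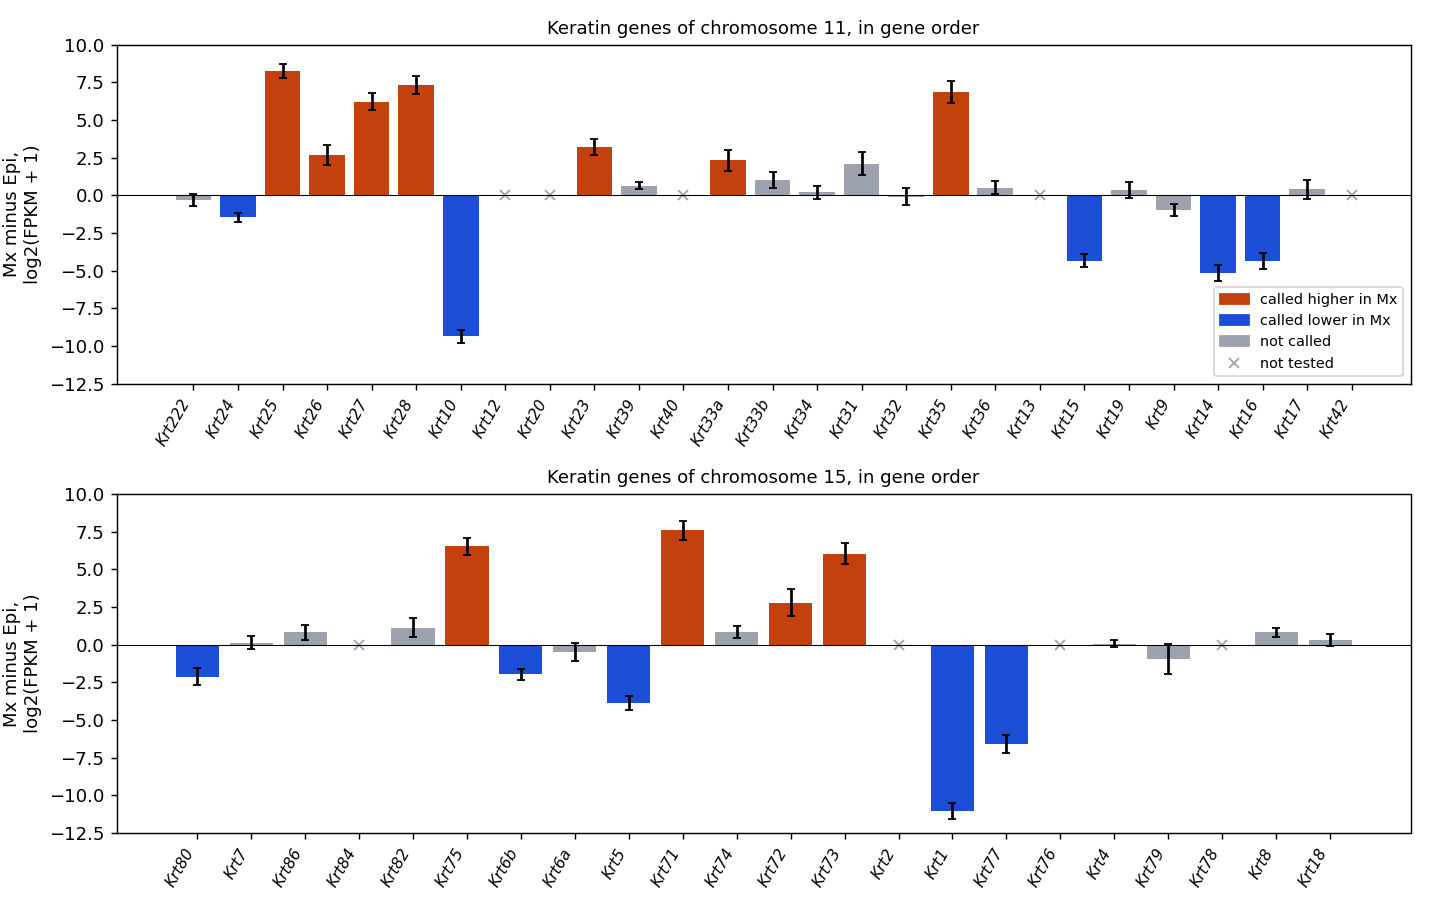
Bars show the Mx minus Epi difference in log2(FPKM + 1) for the keratin genes of chromosome 11 (upper panel) and chromosome 15 (lower panel) in gene order, with standard errors from the fit, and crosses mark genes not tested. Red bars were called higher in Mx, blue bars lower, and grey bars were not called. The run Krt25 to Krt28 is red and is followed by Krt10 in blue, and the block from Krt71 to Krt73 is flanked by Krt5, Krt1 and Krt77 in blue. For Krt26, Krt33a, Krt35, Krt72 and Krt75 in Epi, and Krt6b in Mx, both libraries are listed at 0, so the bar length depends on the pseudocount. The calls of Krt26 and Krt72 were lost without any 1 library, and that of Krt33a without Mx replicate 2 or either Epi library.

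Among other genes listed for the inner root sheath, 7 of 17 tested were higher in Mx, 2 were lower and 8 were not called. Their median log2 difference was 1.61. The list also holds genes of the hair and of metabolism, such as S100a3, Dsg4 and Fbp1. Its count thus does not describe inner sheath structure alone. Tchh encodes trichohyalin, the protein that hardens the inner root sheath, and was at 133 and 222 FPKM in Mx and 2.19 and 2.50 in Epi (5.69 ± 0.40, adjusted p = 4.39e-09). Padi3, a deiminase that converts trichohyalin arginines to citrulline, was at 14.3 and 23.5 in Mx and 0.574 and 0 in Epi (3.95 ± 0.52). S100a3, a calcium-binding protein of the hair cuticle, was at 38.3 and 89.7 in Mx and 0.419 and 0.908 in Epi (5.18 ± 0.63). Each was separate between the populations. Tgm6, a transglutaminase, was at 7.93 and 11.5 in Mx and 0.0329 and 0 in Epi (3.38 ± 0.39), while Tgm3, the transglutaminase shared by inner sheath and epidermis, was lower in Mx, at 7.50 and 11.2 in Mx against 95.7 and 95.4 in Epi (-3.25 ± 0.52). Dsg4, the desmoglein of the hair, was at 23.1 and 38.2 in Mx and Crym at 8.43 and 13.7, and both were listed at 0 in Epi. Fbp1, a gluconeogenic enzyme, was at 19.8 and 21.2 in Mx and 0.325 and 0 in Epi (4.22 ± 0.60). Lgals3, the second gene that was lower, was at 19.8 and 14.3 in Mx and 103 and 112 in Epi, and lost its call without Mx replicate 2 or either Epi library (adjusted p up to 0.121).

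The cornified envelope is the protein shell of dead epidermal cells. The list holds genes of the envelope and of other proteins made during cornification. Of 26 tested, 10 were lower in Mx, 2 were higher and 14 were not called, against 6.14% and 5.12% of all genes tested lower and higher. Their sum was 393 and 345 FPKM in Mx and 11179.5 and 12856 in Epi. Most of the Epi sum came from Stfa3 and Krtdap, so it does not describe the list as a whole. Stfa3 (chr16:36450537-36455392), a stefin A protease inhibitor, had the largest difference of all genes under the naming rule, at 1.62 and 1.85 in Mx and 8026 and 9203 in Epi (-11.62 ± 0.78, adjusted p = 2.91e-09). Its near-identical neighbours BC100530, at 1.41 and 0 in Mx and 3309 and 4602 in Epi, and BC117090, listed at 0 in Mx and at 294 and 231 in Epi, share reads with it, so the levels of single copies are uncertain. Krtdap, a secreted protein of suprabasal cells, was at 32.3 and 14.6 in Mx and 1817 and 2173 in Epi (-6.44 ± 0.73). Casp14, the caspase of cornification, was at 0.31 and 1.44 in Mx and 68.7 and 88.7 in Epi (-5.47 ± 0.42). Klk8, a protease of shedding skin, was at 0.402 and 0 in Mx and 21.3 and 16.3 in Epi (-4.05 ± 0.31). For all of these the lower Epi library was above the higher Mx library. Serpinb12 was listed at 0 in Mx and at 13.5 and 18.8 in Epi, and Calm4 and Sbsn were also lower, by log2 differences of -4.27 ± 0.57 and -2.35 ± 0.41. The scaffold genes of the envelope were not called: Ppl (periplakin) was at 59.6 and 72.8 in Mx and 139.7 and 105 in Epi. Evpl (envoplakin) was at 15.2 and 12.7 in Mx and 31.3 and 20.8 in Epi. Ivl (involucrin) was at 2.47 and 5.93 in Mx and 0.992 and 3.17 in Epi. In the other direction Tgm1, the enzyme that crosslinks the envelope, was at 14.1 and 9.57 in Mx and 1.67 and 2.31 in Epi. Calml3 was at 13.5 and 18.5 in Mx and 3.67 and 2.86 in Epi. The call of Tgm1 (adjusted p = 0.0082) was lost without Mx replicate 1 or Epi replicate 1, and that of Calml3 (0.0186) whichever library was left out (adjusted p up to 0.0887 and 0.162), so 0 or 1 of these calls held without 1 library. Among 4 small proline-rich genes tested, another copy-rich envelope family, 2 were lower (1 whichever library was left out), and Sprr4 was at 0 and 13.2 in Mx and 153 and 69.4 in Epi (-4.79 ± 0.89). The single late cornified envelope gene tested, Lce6a, was at 0 and 0.212 in Mx and 0.906 and 3.40 in Epi (adjusted p = 0.0431), a call that was lost without either Mx library or Epi replicate 2 (up to 0.459 without Epi replicate 2).

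Of the 10 genes with the largest differences below Epi, 5 belonged to none of the lists used here, BC100530 and BC117090 given above and 3 others. Clca2 (chr3:145070260-145099443), a chloride channel regulator, was at 3.32 and 1.67 FPKM in Mx and 338 and 649.6 in Epi (-7.11 ± 0.54, adjusted p = 1.83e-08). H19 (chr7:142575530-142578146), an imprinted long noncoding RNA of growing tissues, was at 14.1 and 15.3 in Mx and 2289.8 and 1604 in Epi (-6.94 ± 0.51, adjusted p = 1.1e-08). Npl (chr1:153503016-153549714), a lyase that breaks down sialic acid, was at 1.67 and 1.85 in Mx and 288 and 220.1 in Epi (-6.52 ± 0.51, adjusted p = 2.33e-08). The Epi libraries lay above both Mx libraries for these 3. In ORS Clca2 was at 9.60 and 5.82, H19 at 52.8 and 48.3 and Npl at 0.445 and 0.281.

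The lipid barrier genes of the epidermis differed less. Of 30 tested, 8 were lower in Mx and 1 higher, with a median log2 difference of -0.81 and sums of 215 and 227 FPKM in Mx and 364 and 399 in Epi. Elovl4, which makes the ultra-long fatty acids of barrier ceramides, was at 3.57 and 3.78 in Mx and 20.3 and 23.1 in Epi (-2.27 ± 0.50, adjusted p = 0.00338). Degs1, a ceramide desaturase, was at 22.5 and 23.9 in Mx and 72.4 and 72.8 in Epi (-1.61 ± 0.22). Acer1, an epidermal ceramidase, was at 3.26 and 2.42 in Mx and 9.26 and 15.2 in Epi (-1.76 ± 0.34). Lipn, a lipase of cornifying cells, was listed at 0 in Mx and at 3.006 and 2.93 in Epi. These 4 were called whichever library was left out, though Lipn lost its call with a pseudocount of 5. The count of lower genes fell to 4 without Mx replicate 2 and to 5 without either Epi library. Elovl1, at 23.6 and 15.98 in Mx and 43.0 and 38.04 in Epi, lay just inside the log2 threshold at -1.02 ± 0.31 and lost its call without Mx replicate 2 or either Epi library (adjusted p up to 0.344). Cers3, the ceramide synthase paired with Elovl4, was at 6.72 and 5.27 in Mx and 13.2 and 20.8 in Epi and was not called, while Cers4, a ceramide synthase of the follicle, was higher in Mx, at 13.0 and 13.5 in Mx against 0.0227 and 0.917 in Epi (3.34 ± 0.39).

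Of immune genes of keratinocytes, 11 of 35 tested were lower in Mx and 2 higher, and 11 or 12 were lower when any 1 library was left out. Their sum was 444 and 324 FPKM in Mx and 2791 and 2965 in Epi. Ccl27a, the chemokine that draws skin-homing T cells, was at 22.2 and 20.6 in Mx and 572 and 911 in Epi (-5.01 ± 0.56, adjusted p = 2.5e-06). Skint1, which selects the resident gamma-delta T cells of mouse epidermis, was at 0 and 0.117 in Mx and 15.8 and 26.2 in Epi (-4.34 ± 0.39). The alarmin Il33 was listed at 0 in Mx and at 16.1 and 17.8 in Epi. Surface proteins of the Ly6 family were also lower, with Ly6d at 79.1 and 25.3 in Mx and 1518 and 1367 in Epi (-4.97 ± 0.69) and Ly6a at 0.904 and 0 in Mx and 29.8 and 55.8 in Epi (-4.92 ± 0.57). Il1rn, the interleukin 1 receptor antagonist, was at 7.12 and 6.89 in Mx and 44.9 and 47.2 in Epi (-2.55 ± 0.42, lost with a pseudocount of 0.1). The defensin Defb1 was at 0.959 and 1.04 in Mx and 10.4 and 13.7 in Epi (-2.69 ± 0.41). Leukocyte markers were near 0 in both populations: Ptprc, the pan-leukocyte marker, was listed at 0 in all 4 libraries, and the leukocyte list summed to 2.51 and 0.283 FPKM in Mx and 0.746 and 1.20 in Epi. Tnf and Cxcl1 were the 2 higher genes, Tnf at 4.91 and 4.70 in Mx and 0.478 and 0.107 in Epi and Cxcl1 at 3.83 and 6.81 in Mx and 0 and 0.821 in Epi. The call of Tnf was lost without Epi replicate 2 (adjusted p = 0.0667) and that of Cxcl1 without Mx replicate 2 or Epi replicate 1 (up to 0.2 without Epi replicate 1).

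**Figure D4:**
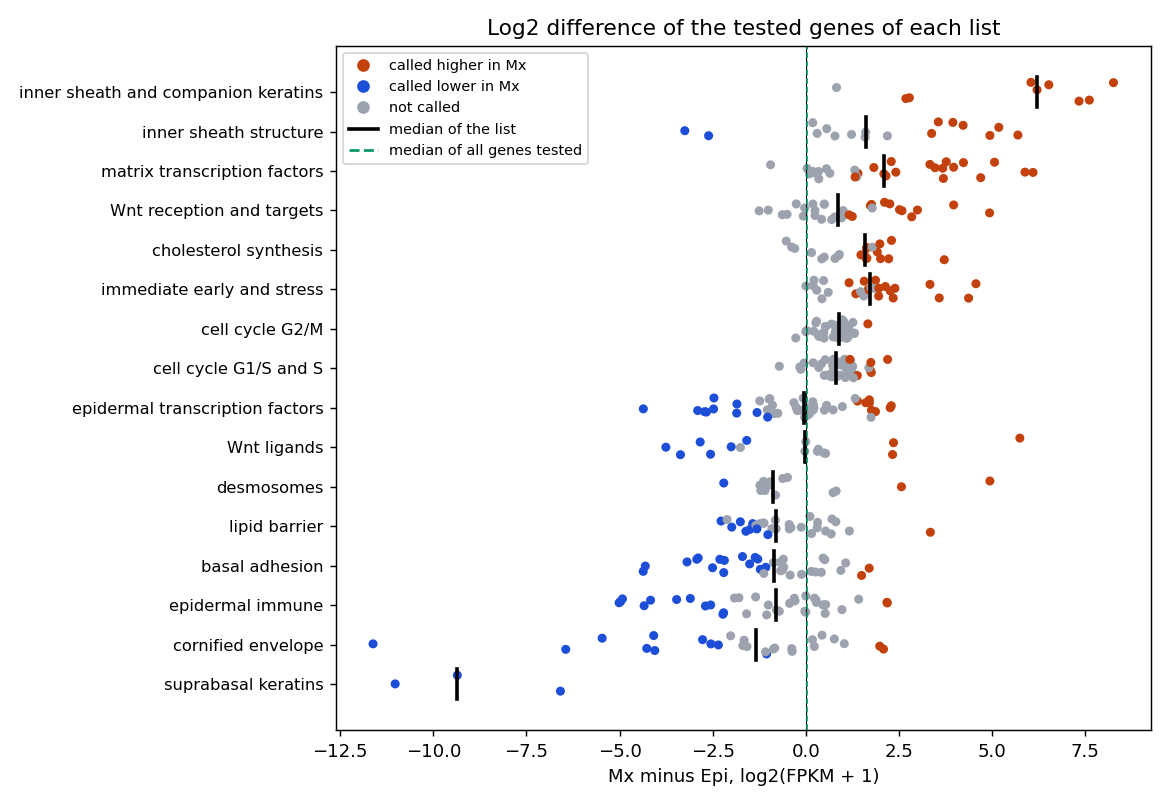
Points show the Mx minus Epi difference in log2(FPKM + 1) of each tested gene of 16 gene lists, red where called higher in Mx, blue where called lower and grey where not called. Black bars are list medians and the dashed line is the median of all genes tested, 0.046. Inner sheath keratins lie at the right with a median of 6.21, suprabasal keratins at the left with a median of -9.35, and both cell cycle lists lie in a narrow band to the right of 0 with few calls. Positions of genes listed at 0 in 1 population depend on the pseudocount.

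Among genes that anchor basal cells to the basement membrane, 15 of 33 tested were lower in Mx and 2 higher, with sums of 542 and 433 FPKM in Mx and 1955 and 1656 in Epi, and 9 to 12 were lower when 1 library was left out (9 without Mx replicate 2). The hemidesmosome rivets keratin to the basement membrane, and 3 of its membrane proteins were lower. Col17a1 (collagen XVII) was at 32.7 and 22.4 in Mx and 627 and 531 in Epi (-4.36 ± 0.43, adjusted p = 4.75e-07). Itga6 was at 26.5 and 26.8 in Mx and 209.5 and 209 in Epi (-2.93 ± 0.30). Itgb4 was at 22.9 and 24.5 in Mx and 135 and 91.7 in Epi (-2.19 ± 0.44). Cd151, a tetraspanin of the hemidesmosome, was at 38.5 and 23.5 in Mx and 45.2 and 49.0 in Epi and was not called. Dst, whose epithelial form ties keratins to the plaque, was at 14.2 and 13.7 in Mx and 112 and 107 in Epi (-2.89 ± 0.22), whereas Plec (plectin), the other linker, was at 39.9 and 29.2 in Mx and 97.7 and 58.8 in Epi and was not called. Lama3 and Lamb3, chains of the laminin to which hemidesmosomes bind, were lower with log2 differences of -2.31 ± 0.44 and -3.19 ± 0.36. Col7a1, the anchoring fibril collagen, was at 1.68 and 0.557 in Mx and 43.6 and 35.7 in Epi (-4.31 ± 0.46). Integrin beta 1 (Itgb1) was at 34.5 and 43.9 in Mx and 49.0 and 80.3 in Epi and was not called. The 2 genes of this list that were higher encode basement membrane proteins, although Col4a1, Col4a2, Hspg2, Lamc1 and Nid2 were not called. Lamb1, a laminin beta chain, was at 25.04 and 22.8 in Mx and 8.05 and 5.47 in Epi (1.70 ± 0.27). Nid1 (nidogen) was at 2.13 and 2.34 in Mx and 0.137 and 0.155 in Epi (1.498 ± 0.30), a call that was lost with a pseudocount of 5. In ORS Lamb1 was at 88.2 and 86.5, and Mx was lower than ORS (-1.83 ± 0.27, adjusted p = 0.000356).

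Most genes of the cell junctions were not called. The shares called higher in Mx were 14.3% of desmosome genes and 27.3% of genes of the other junctions, against 5.12% of all genes tested. The shares called lower were 7.14% and 4.55%, against 6.14%. Among 14 desmosome genes tested, 1 was lower and 2 were higher, and the median log2 difference was -0.88. Only 4 of the 14 differences lay above 0. At an unadjusted p under 0.05 in limma, 6 were lower and 3 higher, so the list leaned towards Epi despite its share called higher. Pkp1, a plaque protein, was at 112 and 104 FPKM in Mx and 549 and 455 in Epi (-2.20 ± 0.40, adjusted p = 0.00057). Its relative Pkp2 was at 5.81 and 4.74 in Mx and 0 and 0.113 in Epi (2.57 ± 0.47). Dsp (desmoplakin), the core plaque protein, was at 346 and 388 in Mx and 783 and 643 in Epi and was not called, and neither were the near-identical Dsg1a and Dsg1b. Of 22 genes of the other junctions, 6 were higher (3 without Mx replicate 1 or Epi replicate 1) and 1 was lower (0 without either Mx library or Epi replicate 1). Gjb2 (connexin 26), a gap junction subunit, was at 195 and 214 in Mx and 6.47 and 2.48 in Epi (5.33 ± 0.46). Its neighbour Gjb6 (connexin 30) was at 14.4 and 18.8 in Mx and 3.32 and 2.55 in Epi (2.16 ± 0.41). Gja1 (connexin 43), with 192 and 288 in Mx and 149 and 138 in Epi, was not called. Cldn10, a claudin that forms ion pores, was at 43.5 and 31.5 in Mx and listed at 0 in Epi. The classical cadherins were not called, Cdh1 (E-cadherin) at 147 and 118 in Mx and 359 and 262 in Epi and Cdh3 (P-cadherin), typical of hair bulbs, at 126 and 110.5 in Mx and 64.6 and 61.9 in Epi.

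Most transcription factors known from the hair matrix were higher. Of 29 tested, 18 were higher (62.1%, against 5.12% of all genes tested) and none lower in limma (1 at an unadjusted p under 0.05). The median log2 difference was 2.096. With 1 library left out, 13 to 19 were higher, with 1 lower when Mx replicate 1 was the one omitted. Hoxc13 (chr15:102921131-102928814), a homeobox factor that activates hair keratin genes, was at 87.6 and 88.5 FPKM in Mx and 0.141 and 0.476 in Epi (6.10 ± 0.41, adjusted p = 3.16e-09). Dlx3 (chr11:95120117-95125296), required for hair formation, was at 240.0 and 221 in Mx and 3.07 and 2.78 in Epi (5.89 ± 0.53). Msx2 was at 109 and 127 in Mx and 2.04 and 3.10 in Epi (5.07 ± 0.42). Dlx2 was at 34.8 and 17.7 in Mx and Dlx1 at 10.02 and 10.1, and both were listed at 0 in Epi. Dlx5, at 5.04 and 5.72 in Mx and 6.14 and 4.43 in Epi, was not called. Cux1, an inner sheath regulator, was at 392 and 294 in Mx and 23.1 and 12.6 in Epi (4.23 ± 0.42). Trps1 was at 19.5 and 25.4 in Mx and 0.628 and 1.04 in Epi (3.68 ± 0.37). Lef1 had a log2 difference of 3.97 ± 0.42 (adjusted p = 1.22e-06), and Tcf7, its close relative, of 2.26 ± 0.47. Tcf7l1 and Tcf7l2, the other genes of that family, were not called (adjusted p = 0.731 and 0.892 in limma). Tcf3 (35.7 and 20.04 in Mx and 27.9 and 15.5 in Epi) and Tcf4 (15.9 and 19.8 in Mx and 12.3 and 15.4 in Epi) belong to another family despite their names. They were not called either. Gata3, needed for the inner root sheath but also present in epidermis, was at 61.1 and 56.9 in Mx and 49.2 and 61.4 in Epi. Sox21, a hair cuticle factor, was at 75.3 and 52.2 in Mx and 69.4 and 38.3 in Epi. Neither was called. Foxn1, the gene mutated in nude mice, was at 30.8 and 17.7 in Mx and 5.06 and 6.78 in Epi, and its call (adjusted p = 0.0232) was lost without Mx replicate 1 or either Epi library (up to 0.217).

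Factors known from the epidermis divided in both directions, with 10 of 44 lower in Mx, 8 higher and a median log2 difference of -0.05. Satb1, a chromatin organiser of the keratinocyte differentiation genes, was at 1.78 and 2.50 FPKM in Mx and 58.1 and 68.6 in Epi (-4.36 ± 0.38, adjusted p = 8.83e-08). Rora, an orphan nuclear receptor, was at 5.54 and 3.41 in Mx and 35.0 and 43.9 in Epi (-2.90 ± 0.45). Pou2f3, an epidermal POU factor, was at 27.6 and 16.6 in Mx and 149 and 144 in Epi (-2.72 ± 0.52). The epithelial master regulator Trp63 was at 287 and 225 in Mx and 446 and 409.6 in Epi and was not called. Several barrier regulators were also not called: Klf4 was at 60.3 and 34.1 in Mx and 110.3 and 72.9 in Epi. Grhl3 was at 30.4 and 31.6 in Mx and 32.2 and 22.2 in Epi. Zfp750 was at 106 and 87.2 in Mx and 47.3 and 49.3 in Epi. Prdm1, which marks the inner sheath as well as late keratinocytes, was higher in Mx, at 7.28 and 11.2 in Mx against 1.12 and 0.979 in Epi (2.29 ± 0.32). The other 7 that were higher, among them Ovol1 at 40.1 and 44.2 in Mx and 11.7 and 12.7 in Epi and Hopx at 99.1 and 125 in Mx and 32.8 and 31.3 in Epi, each lost the call without at least 1 library. The count of higher genes was 3 without either Mx library and 2 without Epi replicate 1, and that of lower genes was 5 without Mx replicate 2 and 6 without Epi replicate 1. Ovol1 lost its call whichever library was left out (adjusted p up to 0.164 without Mx replicate 2) and Hopx without Mx replicate 2 (0.0545).

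Within the Hox clusters, 4 of 29 tested genes were higher (2 without either Epi library) and 4 lower. Hoxd8 was at 9.61 and 8.37 FPKM in Mx and 0.615 and 0.498 in Epi (2.68 ± 0.46, adjusted p = 0.000319). Hoxb3, at 20.6 and 19.05 in Mx and 6.37 and 8.24 in Epi, lost its call whichever library was left out (adjusted p up to 0.156 without Epi replicate 1). Hoxd4, at 0.479 and 2.19 in Mx and listed at 0 in Epi, lost its call without Mx replicate 2 or either Epi library (up to 0.567 without Mx replicate 2). Hoxc4 was at 0.556 and 0.069 in Mx and 8.60 and 11.9 in Epi (-3.11 ± 0.42). Hoxc5 was at 1.08 and 2.09 in Mx and 13.5 and 10.8 in Epi (-2.37 ± 0.40). Hoxa4 was at 1.90 and 0.0929 in Mx and 9.57 and 4.47 in Epi and lost its call without Mx replicate 2 or Epi replicate 1 (adjusted p up to 0.355 without Mx replicate 2). Within 1 cluster Hoxc13 was higher while Hoxc4 and Hoxc5 were lower, and Hoxc8, between them, was at 9.25 and 14.0 in Mx and 14.7 and 10.98 in Epi and was not called. Hoxb8, with 7.37 and 4.27 in Mx and 0.846 and 1.05 in Epi, missed the adjusted p threshold at 0.0508.

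Wnt ligands differed in both directions. Of 16 Wnt ligands tested, 3 were higher in Mx and 6 lower. Wnt5a, a ligand that mostly acts without beta-catenin, was at 62.9 and 87.8 FPKM in Mx and 0.169 and 0.686 in Epi (5.75 ± 0.32, adjusted p = 1.42e-10). Wnt11, of similar action, was at 4.39 and 4.51 in Mx and 0 and 0.176 in Epi (2.33 ± 0.42), and lost its call with a pseudocount of 5. Both libraries of Mx lay above both of Epi for each. Wnt4 was at 26.8 and 21.2 in Mx and 177 and 119 in Epi (-2.56 ± 0.38). Wnt3 was at 1.19 and 4.17 in Mx and 22.1 and 23.9 in Epi (-2.83 ± 0.40). Wnt7b was at 1.004 and 0.425 in Mx and 20.1 and 13.3 in Epi (-3.36 ± 0.32). Wnt16 was listed at 0 in Mx and at 12.7 and 12.4 in Epi. The Wnt10 pair, known from matrix cells, was present in both populations: Wnt10b was at 25.1 and 16.01 in Mx and 17.5 and 11.2 in Epi. Wnt10a was at 7.56 and 4.89 in Mx and 26.1 and 20.2 in Epi, and neither was called (adjusted p = 0.747 and 0.0524). Against ORS, however, where Wnt10b was at 0.393 and 0.774, it was higher in Mx (3.75 ± 0.58, adjusted p = 0.000512).

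Receptors and targets of the Wnt pathway were higher in 12 of 30 cases and lower in none in limma (1 at an unadjusted p under 0.05), with a median log2 difference of 0.87. Among Frizzled receptors, Fzd5 was at 54.6 and 55.3 FPKM in Mx and 4.27 and 8.30 in Epi (2.998 ± 0.45, adjusted p = 8.53e-05). Fzd1 was at 124 and 83.9 in Mx and 17.6 and 9.99 in Epi (2.84 ± 0.38). Fzd7 was at 74.9 and 54.0 in Mx and 11.8 and 8.96 in Epi (2.52 ± 0.28). Fzd6 was at 20.7 and 23.8 in Mx and 50.2 and 58.7 in Epi. Fzd10 was at 19.5 and 26.5 in Mx and 28.1 and 19.2 in Epi, and neither was called. Nkd2, a feedback inhibitor that binds Dishevelled, was at 23.6 and 40.9 in Mx and 0 and 0.1 in Epi (4.93 ± 0.34). Its relative Nkd1 was at 6.14 and 4.14 in Mx and 0.0243 and 0 in Epi (2.58 ± 0.48), a call lost with a pseudocount of 5. Axin2, the most widely used target gene, was at 43.4 and 38.5 in Mx and 30.9 and 26.7 in Epi and was not called. Ctnnb1 (beta-catenin) was at 400.4 and 452 in Mx and 259 and 183 in Epi and stayed under the log2 threshold at 0.96 ± 0.21 with an adjusted p of 0.00297. Without 1 library, 8 to 12 genes were higher, lowest without Epi replicate 2.

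Hedgehog genes were led by the ligand. Shh (Sonic hedgehog), the mitogen made by matrix cells, was at 51.5 and 44.2 FPKM in Mx and 0.852 and 0 in Epi (5.16 ± 0.67, adjusted p = 1.56e-05). Gli1, the transcription factor that reports the signal, was at 28.3 and 14.6 in Mx and 7.46 and 1.31 in Epi (2.27 ± 0.48). Ptch1, the receptor that hedgehog signalling induces, was at 111 and 82.1 in Mx and 60.4 and 29.2 in Epi (1.16 ± 0.35). Gli1 lost its call without Mx replicate 1 or Epi replicate 2 (adjusted p up to 0.102), and Ptch1 without either Mx library or Epi replicate 2 (up to 0.432). Smo, the signal transducer, did not pass the test at 41.4 and 34.4 in Mx and 44.8 and 33.9 in Epi. Gas1 and Cdon, cell surface proteins that bind hedgehog ligand, were lower in Mx: Gas1 was at 4.11 and 3.64 in Mx and 72.0 and 39.4 in Epi (-3.48 ± 0.35) and Cdon at 3.87 and 2.08 in Mx and 33.9 and 38.2 in Epi (-3.26 ± 0.63). Boc, the third such protein, was at 5.34 and 5.36 in Mx and 5.83 and 5.65 in Epi and was not called. In all, 5 of 13 genes tested were higher (3 without Mx replicate 1 or Epi replicate 2) and 2 lower. In ORS, Shh was at 4.07 and 2.09 and Ptch1 at 214 and 144.

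The BMP and TGF-beta families had 6 higher and 4 lower genes among 35 tested. Id3, Id2 and Id1, direct response genes of BMP signals, were higher, while Id4 of the same family was not called (adjusted p = 0.166 in limma). Id3 was at 205 and 166 FPKM in Mx and 12.9 and 12.2 in Epi (3.77 ± 0.51, adjusted p = 2.49e-05). Id2 was at 16.7 and 19.3 in Mx and 0 and 1.14 in Epi (3.69 ± 0.45). Id1 was at 59.7 and 43.3 in Mx and 3.47 and 7.36 in Epi (3.08 ± 0.61). The ligand Bmp4 was at 59.1 and 28.5 in Mx and 16.4 and 12.1 in Epi (1.48 ± 0.42), a call that was lost without Mx replicate 1 or either Epi library (adjusted p up to 0.297). Bmp2 and Bmp7 were not called, Bmp2 at 11.3 and 12.1 in Mx and 19.9 and 20.7 in Epi and Bmp7 at 39.0 and 25.7 in Mx and 30.4 and 17.6 in Epi. Receptors were split. Bmpr1a was at 44.4 and 65.4 in Mx and 35.0 and 42.6 in Epi and was not called, whereas Bmpr1b was at 0.11 and 0.453 in Mx and 8.35 and 6.09 in Epi (-2.68 ± 0.36). Tgfbr2, the ligand-binding TGF-beta receptor, was at 2.27 and 1.68 in Mx and 28.3 and 23.6 in Epi (-3.18 ± 0.34). Bmp3, at 0.27 and 0.0421 in Mx and 11.7 and 9.21 in Epi, and the antagonist Fst (follistatin), at 5.24 and 3.74 in Mx and 51.2 and 33.2 in Epi, were the other 2 that were lower.

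Notch components were mostly shared, with 3 of 22 tested genes higher and 2 lower (0 without Mx replicate 1 or Epi replicate 1 and 1 without either other library). Heyl, a Notch target, was at 18.8 and 19.5 FPKM in Mx and 0.196 and 0 in Epi (4.20 ± 0.39, adjusted p = 2.34e-07). The ligand Jag1 was at 45.9 and 79.0 in Mx and 15.4 and 20.6 in Epi (1.70 ± 0.27). Hes1, the general target, was at 43.0 and 39.3 in Mx and 32.2 and 25.5 in Epi and was not called. Notch1 was not called either, at 85.6 and 82.5 in Mx and 64.8 and 46.3 in Epi. The ligand Dll1, which basal epidermal cells carry, was at 2.57 and 3.68 in Mx and 11.6 and 15.1 in Epi (-1.80 ± 0.55), but its call was lost whichever library was left out (adjusted p up to 0.197 without Mx replicate 1).

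Growth factor genes were called in both directions, 9 higher and 7 lower of 42 tested. Some feedback genes of FGF and ERK signalling were higher, with Dusp6 at 21.3 and 26.6 FPKM in Mx and 0.582 and 2.33 in Epi (3.43 ± 0.33, adjusted p = 3.46e-07). Etv4 was at 22.7 and 15.1 in Mx and 0.396 and 2.13 in Epi (3.22 ± 0.65). Spry4 was at 4.94 and 3.71 in Mx and listed at 0 in Epi. Spry1, at 16.2 and 13.0 in Mx and 1.89 and 3.18 in Epi, lost its call whichever library was left out (adjusted p up to 0.21 without Epi replicate 1), and Spry2 and Etv5 were not called (adjusted p = 0.0761 and 0.209). Another list held 9 tested genes for pigment receipt by keratinocytes or for their signals to melanocytes. Of these, 4 were higher and none lower (0 at an unadjusted p under 0.05 in limma). Among them Kitl, the ligand that keeps melanocytes in the bulb, was at 16.01 and 27.4 in Mx and 2.87 and 3.57 in Epi (2.39 ± 0.49). Myo10, a myosin of pigment transfer, was at 42.6 and 43.3 in Mx and 19.9 and 18.8 in Epi (1.11 ± 0.24). With a pseudocount of 5 the calls of Spry4 and Myo10 were lost. The lower genes included binding proteins of insulin-like growth factor. Igfbp2 was at 0.88 and 0.768 in Mx and 60.8 and 26.8 in Epi (-4.51 ± 0.89). Igfbp3 was at 1.75 and 0.931 in Mx and 20.4 and 49.4 in Epi (-3.83 ± 0.77). Pdgfc, a ligand for receptors of dermal fibroblasts, was at 0.724 and 0.037 in Mx and 20.7 and 23.3 in Epi (-4.10 ± 0.45). Fgfr2, the epithelial FGF receptor, was at 165 and 138 in Mx and 247 and 229 in Epi and was not called, and Fgfr1, at 14.5 and 8.92 in Mx and 4.88 and 5.61 in Epi, lay just outside the log2 threshold at 0.99 ± 0.30 (adjusted p = 0.0331). The count of lower genes was 3 without Mx replicate 2 and 4 without Mx replicate 1 or Epi replicate 1.

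**Figure D5:**
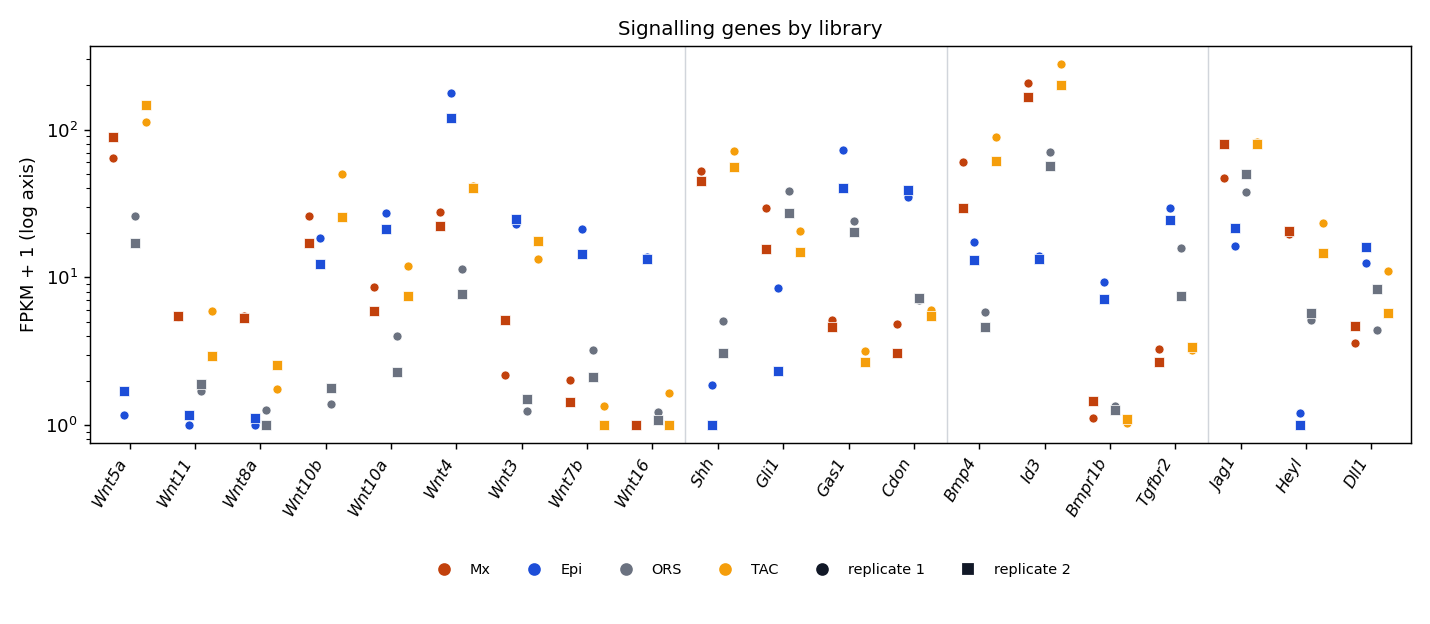
Points show FPKM + 1 on a log axis for each library, coloured by population (Mx, Epi, ORS, TAC), with circles for replicate 1 and squares for replicate 2. Blocks from left to right hold Wnt ligands, hedgehog genes, BMP and TGF-beta genes, and Notch genes. Wnt5a, Shh and Heyl lie far above Epi in both Mx libraries, Wnt16, Gas1 and Bmpr1b lie above Mx in both Epi libraries, and for Wnt10b the populations lie close together, at 25.1 and 16.01 in Mx and 17.5 and 11.2 in Epi.

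Of 40 G1/S and S phase genes, 7 were higher in Mx and none lower, and of 45 G2/M genes, 1 was higher and none lower (0 lower of either list at an unadjusted p under 0.05 in limma, 18 and 9 higher), shares of 17.5% and 2.22% against 5.12% of all genes tested. The differences were small and in 1 direction: 36 of the 40 and 44 of the 45 lay above 0, with medians of 0.82 and 0.90 against 0.046. Mki67, the proliferation marker, was at 323 and 298 FPKM in Mx and 162 and 116 in Epi (1.17 ± 0.58, adjusted p = 0.242). Top2a was at 174 and 196 in Mx and 90.3 and 76.9 in Epi. For both genes the 2 populations did not overlap, yet neither was called. The called G1/S and S genes included Ccnd1 (cyclin D1), at 265 and 280.2 in Mx and 86.4 and 76.1 in Epi, Ccnd2 (cyclin D2), at 340.4 and 357 in Mx and 156 and 159.5 in Epi, and the replication factor Mcm10, at 18.5 and 18.6 in Mx and 2.71 and 3.91 in Epi. The count of higher G1/S and S genes was 2 without Mx replicate 1, 1 without Epi replicate 1 and 0 without either other library. Ccnd2 and Mcm10 lost their calls whichever library was left out (adjusted p up to 0.107 and 0.135), Ccnd1 without Mx replicate 2 or Epi replicate 2 (up to 0.0672). Kif2c, the G2/M gene that was called (1.67 ± 0.52, adjusted p = 0.0397), lost its call without any 1 library (up to 0.238). Cdkn1a (p21), a brake of the cycle, was at 129.9 and 129 in Mx and 259 and 227 in Epi and was not called. Of the 9 inhibitor genes tested 1 was higher, Rb1, at 30.7 and 31.4 in Mx and 9.31 and 12.1 in Epi, which lost its call without either Mx library or Epi replicate 1 (adjusted p up to 0.124 without Epi replicate 1), and none was lower (0 at an unadjusted p under 0.05).

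Most genes of cholesterol synthesis were higher. Of 22 tested, 12 were higher in Mx and none lower (0 at an unadjusted p under 0.05 in limma), with a median log2 difference of 1.59 and sums of 1013 and 987 FPKM in Mx and 434 and 363 in Epi. Idi1, an isomerase of the pathway, was at 50.6 and 58.8 in Mx and 9.52 and 11.1 in Epi (2.30 ± 0.37, adjusted p = 0.000174). Sqle (squalene epoxidase) was at 98.1 and 81.5 in Mx and 26.2 and 18.1 in Epi (1.99 ± 0.35). Insig1, a sterol-regulated brake of the pathway, was at 39.7 and 41.4 in Mx and 3.72 and 1.11 in Epi (3.72 ± 0.34). The groups did not overlap for any of these 3. The last-step enzyme Dhcr7 was at 24.0 and 20.4 in Mx and 34.7 and 30.0 in Epi and was not called. With 1 library left out, 9 to 12 genes were higher. ORS sums were 709 and 619, between those of Epi and Mx.

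Retinoid metabolism had 4 higher and no lower genes among 17 tested in limma (1 lower at an unadjusted p under 0.05, and 1 called lower without Mx replicate 1 or Epi replicate 1). Stra6, the receptor that imports retinol, was at 29.3 and 41.2 FPKM in Mx and 0.4 and 0.295 in Epi (4.73 ± 0.59, adjusted p = 8.34e-06). Aldh1a3, which makes retinoic acid, was at 17.6 and 26.4 in Mx and 0.171 and 0.804 in Epi (3.95 ± 0.43). Lrat, which stores retinol as esters, was at 3.37 and 5.92 in Mx and listed at 0 in Epi, and lost its call with a pseudocount of 5. The remaining 13 genes of the list, other enzymes that make retinoic acid among them, were not called. In ORS Stra6 was at 4.79 and 3.62 and Aldh1a3 at 0.864 and 0.978. The carrier Crabp2 was at 2.25 and 0.89 in Mx and 1.92 and 10.6 in Epi and was not called.

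Genes that supply cysteine and thiols, needed for the disulphide bonds of hair, were called in both directions, 6 higher (3 without Mx replicate 1) and 3 lower (0 without any 1 library) of 25. Slc7a8, an amino acid exchanger, was at 21.1 and 19.7 FPKM in Mx and 0.106 and 0.158 in Epi (4.24 ± 0.45, adjusted p = 1.31e-06). Ggt1, which recovers cysteine from glutathione, was at 5.98 and 5.94 in Mx and 0 and 0.0834 in Epi (2.74 ± 0.35). Slc38a1, an amino acid transporter, was at 8.01 and 6.21 in Mx and 0.0833 and 0 in Epi (2.95 ± 0.46). These 3 kept apart in all libraries. The 3 lower genes were Slc1a4 (-1.27 ± 0.34), Cbs (-1.05 ± 0.33) and Slc38a2 (-1.02 ± 0.33), with adjusted p up to 0.112, 0.316 and 0.365 when 1 library was left out. Slc7a8 was at 135 and 155 in ORS, above Mx (-2.76 ± 0.45, adjusted p = 0.000825).

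Markers of other cell types were measured beside these results. The melanocyte list summed to 78.4 and 115 FPKM in Mx and 9.70 and 8.42 in Epi, with 3 of 13 tested genes higher. These were Gpnmb (36.0 and 59.6 in Mx and 0.245 and 0.168 in Epi), Kit (11.8 and 21.7 in Mx and 0.0341 and 0.122 in Epi) and Dct (11.3 and 9.12 in Mx and 0.181 and 0 in Epi, lost with a pseudocount of 5). The pigment cell markers Tyr, at 3.22 and 5.21 in Mx and 1.81 and 3.56 in Epi, and Pmel, at 3.05 and 2.36 in Mx and 3.08 and 1.57 in Epi, overlapped between the populations, and Sox10 was listed at 0 in both Mx libraries. Other uncalled markers leaned to Mx, and 11 of the 13 differences lay above 0. Mlana and Tyrp1 had log2 differences of 2.18 and 2.06. Both were called higher with a pseudocount of 0.1 and in the fit on the 16 libraries of the K14-H2BGFP line. The fibroblast list summed to 529 and 449.6 in Mx and 543 and 545 in Epi, with 3 of 12 higher and 2 lower. Dcn (decorin, chr10:97479500-97518163), a proteoglycan, was at 482 and 407 in Mx and 8.41 and 5.86 in Epi (5.79 ± 0.68, adjusted p = 4e-06), while the defining collagen gene Col1a1, not called, was at 1.51 and 1.99 in Mx and 0.162 and 0.0336 in Epi and Pdgfra at 0.133 and 0.712 in Mx and 0.0255 and 0.0475 in Epi. The other 2 higher genes were fibrillar collagens: Col3a1 was at 4.06 and 5.54 in Mx and 0.0878 and 0.0845 in Epi (2.40 ± 0.44), and Col1a2 at 4.20 and 4.43 in Mx and 0.522 and 0.398 in Epi (1.87 ± 0.46). The call of Col1a2 was lost without Mx replicate 2 or Epi replicate 2 (adjusted p up to 0.0626 without Mx replicate 2), and both calls were lost with a pseudocount of 5. Postn (periostin) went the other way, at 9.03 and 10.2 in Mx and 477 and 505 in Epi. The endothelial list summed to 15.8 and 16.5 in Mx and 0 and 2.41 in Epi, with Pecam1 at 3.35 and 6.36 in Mx and 0 and 0.149 in Epi, and 3 of 12 were higher (0 without Mx replicate 2 or Epi replicate 1, 1 without Epi replicate 2). The adjusted p of Pecam1 was then up to 0.0923 without Mx replicate 2. The dermal papilla list summed to 10.95 and 14.2 in Mx and 1.497 and 2.94 in Epi, 1 of 12 was higher (Prdm1, which inner sheath cells also make), and Sox2 was listed at 0 in all 4 libraries. Of 9 Langerhans cell genes 1 was higher (0 without any 1 library), Ctss was listed at 0 in all 4, and the list summed to 85.0 and 85.1 in Mx and 33.2 and 36.4 in Epi, mostly from Epcam, which follicle keratinocytes make too. None of 10 leukocyte, 3 Merkel and 8 muscle genes was called (0, 0 and 2 at an unadjusted p under 0.05 in limma), with muscle sums of 13.7 and 10.3 in Mx and 3.43 and 2.62 in Epi and Merkel sums of 0.359 and 0.511 and 0.564 and 0.151. Of 10 Schwann cell genes 1 was lower, with sums of 28.1 and 22.7 in Mx and 24.6 and 29.8 in Epi. The erythroid pair summed to 8.29 and 7.72 in Mx and 4.48 and 3.33 in Epi, with 1 higher (0 without either Mx library or Epi replicate 2). The sebocyte and upper follicle list summed to 479 and 525 in Mx and 352 and 322 in Epi, with 4 of 14 higher and 1 lower (0 without Mx replicate 2 or Epi replicate 1, 2 without Mx replicate 1). The outer root sheath list summed to 489 and 304 in Mx, 2655 and 2752 in Epi and 1643 and 1646 in ORS, with 2 of 10 higher (1 without Mx replicate 1 or Epi replicate 1, 0 without Epi replicate 2) and 2 lower. The part of these cells in the differences above was not tested.

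Immediate early and stress genes, which respond quickly to tissue handling, were also higher in Mx, 15 of 26 tested (none lower, 0 at an unadjusted p under 0.05 in limma), with a median log2 difference of 1.71. Their sum was 2372 and 1551 FPKM in Mx, 442 and 699 in Epi and 2379 and 1745 in ORS, the other population of the dermal preparation. Atf3 was at 123 and 62.1 in Mx, 0.493 and 8.30 in Epi and 101 and 57.1 in ORS, and Nr4a1 at 88.8 and 40.7 in Mx, 1.74 and 2.20 in Epi and 81.1 and 40.9 in ORS. Against ORS none of the 26 was called in limma (2 at an unadjusted p under 0.05). There were 7 higher without Mx replicate 1 and 6 without Epi replicate 1. Atf3, Nr4a1, Egr3, Ier3, Ier5 and Hspa1a, whose reads its near-identical copy may share, were called whichever library was left out. Fos, an AP-1 component, was at 139 and 93.2 in Mx, 19.5 and 47.0 in Epi and 132 and 84.5 in ORS, and lost its call without Mx replicate 1 or Epi replicate 1 (adjusted p up to 0.164 without Epi replicate 1). Mx and Epi differed in both preparation and cell type, which cannot be told apart here, and the part of handling in the other differences was not tested.

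ORS, from the same dermal preparation, gives a second reference for the leading genes, using the same 2 Mx libraries. Against ORS, 180 genes (1.2% of those tested) were higher in Mx and 397 (2.64%) were lower. Krt25 was at 97.7 and 68.8 FPKM in ORS, between Epi and Mx, and its Mx minus ORS difference was 3.33 ± 0.45 (adjusted p = 0.000192). Krt35 was at 1.84 and 4.796 in ORS (4.86 ± 0.74), Lef1 at 19.5 and 13.1 (2.71 ± 0.42), and Tchh at 30.1 and 19.97 (2.76 ± 0.40). All 4 were higher in Mx than in either reference. Whether their calls against ORS hold with 1 library left out is not given here. Hoxc13, at 37.98 and 48.5 in ORS, and Cux1, at 286 and 198, were not called against ORS (adjusted p = 0.253 and 0.804), and neither was Gjb2, at 315 and 515. Among genes lower than in Epi, Krt1 was at 7.96 and 0.548, Krt10 at 7.67 and 4.09 and Krtdap at 35.6 and 22.1 in ORS, none of them called against Mx. Dst, at 63.9 and 75.4 in ORS, lay between Mx and Epi and was lower in Mx than in ORS too (-2.23 ± 0.22, adjusted p = 1.48e-05). Col17a1 was at 109 and 107 in ORS and Itga6 at 72.1 and 75.4. The counts of higher and lower genes against ORS were 106 and 303 without Mx replicate 1, 58 and 135 without Mx replicate 2, 87 and 233 without ORS replicate 1, and 60 and 170 without ORS replicate 2.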

How the data were processed

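RNA of sorted cells (6 ng input, RIN of at least 8.8, per the labels' protocols) was sequenced, and reads were processed with TopHat2 2.0.3, Bowtie2 and Cufflinks 2.1.1 on mm10, per the submitters' processing notes. The authors deposited FPKM for 28 libraries in 1 table of 23235 rows, of which 220 identical repeats were dropped. Library sizes were not recoverable. The 15052 genes that reached 1 FPKM in 2 or more of the 28 libraries were tested with limma 3.58.1 in R 4.3.3 on log2(FPKM + 1), with 1 mean per population over all 28 libraries, variances moderated along a trend (residual degrees of freedom 14, prior 5.72) and Benjamini-Hochberg adjustment. The test was checked on simulated data with 200 changed genes. Groups came from sample titles, and no column was left over. The genes compared and the gene lists were chosen with earlier results of these data known. Named genes were the markers of the populations, the 10 largest differences in each direction with a mean of at least 5 FPKM, and up to 6 called genes per list and direction, with uncalled genes that complete a family; some genes under this rule are not reported here. Alternatives were other pseudocounts, filters, scaling, libraries in the fit, a replicate block, no trend, and each library left out. Promoter sequences and gene positions are from RefSeq on GRCm38.p6. Positions are 1-based. Summed FPKM of a list add genes of any level.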

Additional observations from a re-analysis of the deposited data

How the results depend on the processing

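Counts of called genes depended on the spread estimate more than on scaling. For Mx against Epi, 770 genes were higher and 924 lower, and the settings other than those given here gave 649 to 955 higher and 659 to 1134 lower. With a pseudocount of 5, 473 were higher. With the 4 libraries alone, 337 were higher and 377 lower, and against ORS none was called in limma in either direction (0 and 0, with 1236 higher and 1449 lower at an unadjusted p under 0.05). With 1 library left out, 477 to 528 were higher and 570 to 746 lower than in Epi, and 58 to 106 were higher and 135 to 303 lower than in ORS. The labels do not say whether a shared replicate number marks a pairing. The deviations of same-numbered libraries correlated at 0.123 between Mx and Epi and at 0.265 between Mx and ORS, and Ddx3y was at 1.89 to 4.21 FPKM in replicate 1 and at 0 to 0.0341 in replicate 2 of Mx, Epi, ORS and TAC. With the replicate number as a block, 955 were higher and 1134 lower than in Epi, and 273 higher and 586 lower than in ORS. Of 285 called genes of the lists or the text, 181 were called whichever library was left out, 120 in every other setting, and 0 changed direction. The fit on 4 libraries lost 134 calls, a pseudocount of 5 lost 64 and a pseudocount of 0.1 lost 35. No setting moved the median difference of all genes by over 0.1. The cause of the losses was not tested, and the depth behind each value is unknown.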

Other observations

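The genes in these paragraphs were chosen after their values were seen, and lie outside the gene lists of the report. Several imprinted genes were lower in Mx. H19 was joined by Igf2, the growth factor gene beside it, at 2.94 and 1.40 FPKM in Mx and 228 and 187 in Epi (-6.08 ± 0.43). Plagl1, an imprinted zinc finger gene, was at 0.951 and 0.508 in Mx and 11.02 and 17.6 in Epi (-3.12 ± 0.66, lost with a pseudocount of 5), and Peg3 at 19.3 and 18.1 in Mx and 68.4 and 86.7 in Epi (-1.99 ± 0.42). Igf2r, the imprinted receptor that clears the factor, was at 22.3 and 24.3 in Mx and 14.5 and 14.2 in Epi and was not called.

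Transporters of glucose and lactate were among the lower genes. Slc2a1, the glucose transporter, was at 6.11 and 3.93 in Mx and 190.2 and 173 in Epi (-4.95 ± 0.32, adjusted p = 1.75e-09 in limma), and Slc16a1, which carries lactate, was at 0.517 and 0.029 in Mx and 28.1 and 34.3 in Epi (-4.68 ± 0.49). Of the glycolytic genes examined, Aldoa was at 60.3 and 55.5 in Mx and 232 and 162 in Epi (-1.73 ± 0.33) and Pfkp at 6.85 and 3.95 in Mx and 15.4 and 22.5 in Epi (-1.66 ± 0.36), and both were lower, though Pfkp lost its call without Mx replicate 2 or Epi replicate 2 (adjusted p up to 0.0851 without Mx replicate 2). Hk2, at 7.49 and 9.10 in Mx and 10.2 and 12.6 in Epi, Gapdh, at 649 and 437 in Mx and 723 and 495 in Epi, Pgk1, at 85.2 and 79.4 in Mx and 53.6 and 67.0 in Epi, and Ldha, at 204 and 155 in Mx and 404 and 269 in Epi, were not called. Some genes of zinc handling were higher. Mt4, an epithelial metallothionein, was at 149 and 95.9 in Mx and 4.37 and 0 in Epi (5.70 ± 1.15). Mt2 was at 3780.4 and 1639.7 in Mx and 534 and 346 in Epi (2.53 ± 0.65) and lost its call without Mx replicate 1 or Epi replicate 2 (adjusted p up to 0.159 without Mx replicate 1), and Mt1, at 563 and 259.9 in Mx and 115 and 106 in Epi, was not called. The zinc transporters Slc39a10 and Slc30a1 were higher by 3.02 ± 0.37 and 3.38 ± 0.33. Nrp2, a receptor of semaphorins, was at 119 and 111 in Mx and 2.08 and 1.05 in Epi (5.53 ± 0.32). Msx1as, listed as antisense to Msx1, was at 35.5 and 61.8 in Mx and listed at 0 in Epi. Msx1 itself was at 4.14 and 2.56 in Mx and listed at 0 in Epi. Whether the counting used strand is not given in the sources used here, and without strand the reads of this pair cannot be told apart.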
